A study of Mus musculus with 15 samples.

Results

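Intronic stretches of chromatin that carried H3K27ac in both WT libraries and in neither H3.3cKO library are described here. They were chosen from the 4 H3K27ac region lists themselves: the lists of WT replicates 1 and 2 and of cKO replicates 1 and 2 were merged on 19 autosomes and the X chromosome, and a merged region was a member when it overlapped a called region by at least 1 bp in both WT lists and in neither cKO list, with its midpoint in an intron of a protein-coding gene, outside all exons and outside a window from 1 kb upstream to 100 bp downstream of any transcription start site (TSS). There were 9320 members among 61432 intronic and 89785 merged regions in all. The count depends on the lists and the rule. Without WT replicate 1 or 2, when a call in the other WT list sufficed, it was 19689 or 24143. With the 4 lists cut to equal length by keeping the widest regions of each, it was 4498. Regions called in both WT and neither cKO library made up 15.2% of intronic and 14.2% of all merged regions. Since the call itself chose the members, their H3K27ac is given as a description with no test.

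The cells were bone marrow-derived macrophages (BMDMs), grown from mouse bone marrow in medium conditioned by L929 cells, and the assay was CUT&RUN, in which an antibody directs a nuclease to cut out the chromatin it binds. WT cells came from H3f3a fl/fl:H3f3b fl/fl mice without Cre. The H3.3cKO cells carried the same floxed alleles and LysM-Cre on both alleles, which deletes both genes for histone H3.3 in myeloid cells, so WT and cKO shared the floxed alleles and differed in Cre, and no group with Cre alone has a list here. H3.3-HA cells came from mice in which H3f3b bears an HA tag. H3K27ac and H3K36me3 each had 2 WT and 2 cKO libraries and H3.3-HA had 2 libraries, which were labelled as biological replicates; 5 IgG samples served as controls for the calls and are not analysed here.

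Histone H3.3 is the H3 variant put into chromatin outside replication, at active promoters, enhancers and gene bodies. H3K27ac marks active promoters and enhancers, and many macrophage enhancers lie inside introns, often far from the start of the gene that holds them. H3K36me3 is laid down along transcribed gene bodies behind RNA polymerase II.

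The H3K27ac lists rested on 16444864 to 29988098 tags per library. The share of tags inside called regions was 24.1% and 21.5% in WT replicates 1 and 2 and 11.8% and 17.8% in cKO replicates 1 and 2, and the lists held 61764, 54630, 35018 and 41444 regions. Both cKO lists were shorter and held a smaller share of tags, and the part of this in the loss of regions was not tested. The H3K36me3 library of cKO replicate 1 stood apart, with 19.3% of tags in regions against 46.5% to 50.2% in the other 3, so results that rest on it are also given without it. Of 10 macrophage markers, 7 or 8 had an H3K27ac call at a start site in each library. T cell, erythroid, fibroblast and mast cell markers had none, neutrophil markers had 1 to 3 of 8, B cell markers had 1 or 2 of 6 and dendritic cell markers 1 of 6. The lists did not show the deletion. Exon 2 of H3f3a, the floxed exon, had 0 bp called in any of the 10 lists, WT included. H3f3b, floxed over its 4 exons, had H3K27ac calls over 126 bp of exon 1 in both cKO libraries. Exon 4 had 1065 and 1182 bp called in cKO replicates 1 and 2, and both exons had 0 bp in both WT libraries. The calls thus did not show a complete deletion of this gene in the libraries labelled cKO (the cause was not tested). The paper reported loss of H3.3 in BMDMs by qRT-PCR, RNA-seq and western blot. It also described H3f3b deletion as variable, complete in some cKO samples and partial in others. WT and cKO therefore stand throughout for libraries as labelled. Lyz2, the lysozyme gene into which the Cre was inserted, was covered by H3K27ac regions over 88.4% and 76.9% in WT and 24.1% and 12.8% in cKO.

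As examples, the central 200 bases of a member are printed for 4 of the 6 genes with the most members (plus strand, build mm10, read from the GRCm38 reference). In each gene this is the widest member that an H3.3-HA region overlapped in both libraries. Ralgapa2 had no such member. Capitals mark matches on either strand to the short motifs searched below.
Snx29, chr16:11576914-11577113, intron 15: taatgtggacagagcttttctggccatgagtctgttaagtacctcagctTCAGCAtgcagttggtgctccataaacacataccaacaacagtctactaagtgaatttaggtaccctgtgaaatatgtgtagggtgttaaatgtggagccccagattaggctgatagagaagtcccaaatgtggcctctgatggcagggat
Elmo1, chr13:20397379-20397578, intron 15: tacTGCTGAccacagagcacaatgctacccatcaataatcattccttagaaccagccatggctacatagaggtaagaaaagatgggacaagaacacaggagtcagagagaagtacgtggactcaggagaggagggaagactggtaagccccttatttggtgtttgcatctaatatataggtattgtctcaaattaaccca
Peak1, chr9:56323657-56323856, intron 2: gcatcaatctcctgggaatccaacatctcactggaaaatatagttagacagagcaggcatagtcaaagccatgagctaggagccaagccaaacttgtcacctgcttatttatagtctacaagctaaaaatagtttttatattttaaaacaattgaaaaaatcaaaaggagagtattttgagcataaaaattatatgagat
Kif16b, chr2:142695807-142696006, intron 22: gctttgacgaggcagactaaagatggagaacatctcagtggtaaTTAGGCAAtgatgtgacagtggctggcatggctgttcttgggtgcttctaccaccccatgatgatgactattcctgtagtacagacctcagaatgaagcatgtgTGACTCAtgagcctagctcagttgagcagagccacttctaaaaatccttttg

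These 4 members were 3714 to 8941 bp wide and lay 94.3 to 306.9 kb from the start of the host gene. They are not typical, since the median width of all members was 1016 bp and 22.1% had H3.3-HA in both libraries. The stretch in Kif16b held an AP-1 match and a C/EBP match, motifs of factors that act at macrophage enhancers, and those in Snx29 and Elmo1 held a MAF site. No match fell in the Peak1 stretch. The members in Elmo1 and Kif16b had no H3K36me3 in any library.

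Members were narrow. Their median width was 1016 bp (range 501 to 10428 bp), and 49.1% were 1 kb wide or less. For comparison, 13940 intronic regions called in both WT libraries and in at least 1 cKO library (kept regions) had a median width of 2560 bp, and 7.0% were 1 kb or less. The 1444 gained regions, with a call in both cKO lists and in neither WT list, had a median of 827 bp. Over all 61432 intronic regions the median was 726 bp and 63.9% were 1 kb or less, so members were wider than intronic regions in general. Within members, WT replicate 1 had a median of 807.5 bp called and WT replicate 2 a median of 684 bp, and in 24.8% and 35.5% of members the call was no longer than 501 bp, the shortest that the lists hold. The lost share of WT-shared intronic regions, 40.1% over all widths, was 91.1% among regions of 501 to 750 bp, 52.4% at 1001 to 1500 bp and 1.42% above 5 kb. Loss was thus most common among the narrowest regions, and only 38 members exceeded 5 kb. The rule itself ties loss to width, since any overlap with a cKO call makes a region kept. The merged width of a kept region also includes its cKO calls, so these shares are a description only.

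The 4 widest members lay in Nrp2, Peak1, Snx8 and Oma1. The member in Nrp2, which encodes neuropilin 2, a semaphorin and VEGF co-receptor, spanned 10428 bp of intron 2 (chr1:62727865-62738292), with 10428 bp called in WT replicate 1 and 7363 bp in WT replicate 2. The nearest cKO region lay 1.675 kb away, and H3.3-HA covered 2437 and 3802 bp of it. The member in Peak1, a pseudokinase of the cytoskeleton, spanned 8941 bp of intron 2, and the nearest cKO region was 8.036 kb away. Those in Snx8, a sorting nexin, and Oma1, a mitochondrial protease, spanned 8743 and 7762 bp.

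The boundary of the definition ran close to many regions. The nearest cKO region was 3.813 kb away in the median, 165 members had one within 100 bp, and 1634 members (17.5%) had one within 1 kb. On the other side, 1407 kept regions (10.1%) were counted as kept although the larger cKO call covered less than 25% of them, 1747 were called in cKO replicate 1 only and 3023 in cKO replicate 2 only. By midpoint 355 members lay within 100 bp of an exon or start site window, and 1969 members (21.1%) reached into an exon. The share that reached into an exon was 48.1% for kept and 24.4% for all intronic regions.

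**Figure D1:**
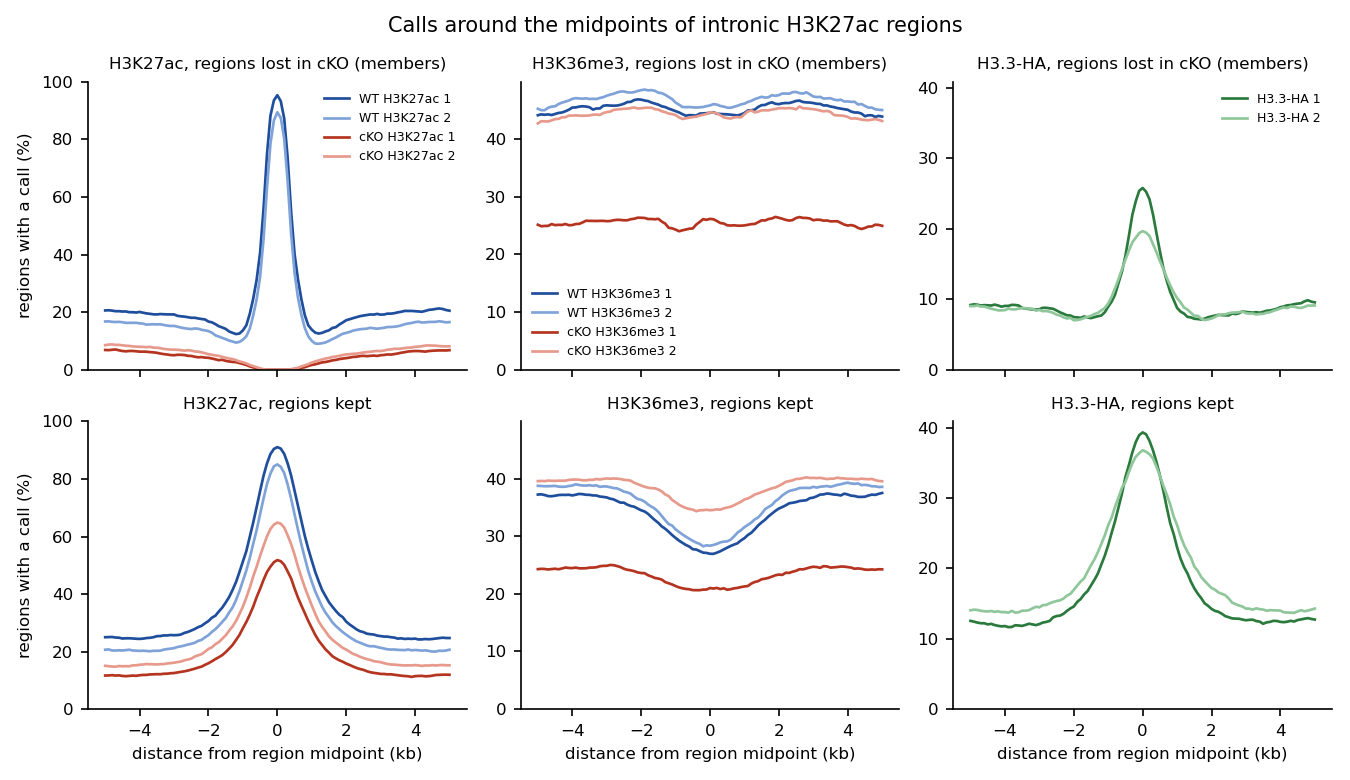
Share of regions (%) with a call of each library against the distance from the region midpoint (kb), for the 9320 lost regions (top) and 13940 kept regions (bottom), with H3K27ac, H3K36me3 and H3.3-HA in columns and 1 line per library. Lost regions form a narrow WT H3K27ac peak that reaches 95.4% and 89.5% at the midpoint, and the cKO lines are at 0 there because the rule sets them so. H3K36me3 changes little across lost regions and dips more deeply at the midpoint of kept regions.

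Members lay farther from the start of their host genes than kept regions. The median distance from the start of the host gene was 40.8 kb (quartiles 18.6 and 88.2 kb), against 23.7 kb for kept and 22.7 kb for gained regions. Within 10 kb of the host gene start lay 12.4% of members, 31.2% of kept and 32.2% of gained regions, and beyond 100 kb lay 2002 members (21.5%) and 14.6% of kept regions. Over all 61432 intronic regions the median was 34.5 kb, with 19.3% within 10 kb and 19.2% beyond 100 kb. In these values members lay closer to intronic regions in general than to kept regions. To the nearest start site of any protein-coding transcript the medians were 27.04 kb for members and 15.7 kb for kept regions. The first intron held 20.0% of members, 39.9% of kept and 24.3% of all intronic regions, each placed by the longest transcript over the midpoint. The first 10% of the gene length held 6.8% of members and 19.9% of kept regions, and between 20% and 90% of the gene length the share of members in each step of 10% stayed between 10.1% and 11.6%. Host genes of members were longer, with a median of 95.1 kb per member against 74.0 kb per kept region and 85.0 kb over all intronic regions. Of 12771 lost regions in all, 372 had their midpoint in a start site window and 73.0% were the intronic members. Among all 89785 merged regions 61432 were intronic. The number of all merged regions in start site windows is not given here, so the 372 are a count without a background.

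**Figure D2:**
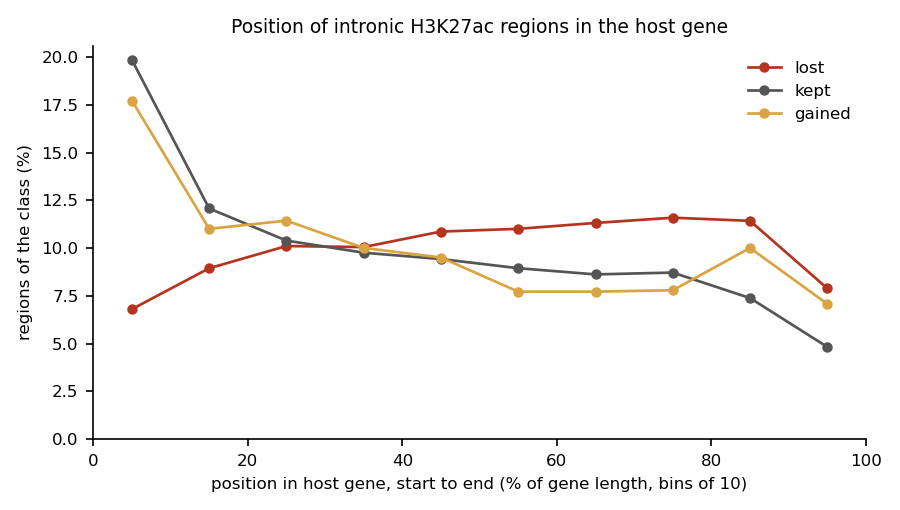
Share of lost, kept and gained intronic regions (%) in each 10% of the host gene length, from its start to its end. Kept and gained regions are most frequent in the first 10% (19.9% and 17.7%), where members are least frequent (6.8%).

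Of the members, 9102 had a single host gene and 218 had several. The single-host members fell into 3744 genes, which is 57.8% of the 6478 genes with an intronic region in both WT libraries. There were 1860 genes with 1 member, 1431 with 2 to 4 and 453 with 5 or more, and these 453 genes held 38.1% of single-host members. Genes with 5 or more members had a median length of 145.5 kb and genes with none 25.1 kb, so the number of members moved with the length of the gene. Among 1490 genes with 5 or more WT-shared regions the median gene lost 40.0% of them (quartiles 25% and 58.3%). In 12 of these genes every region was lost and in 84 none was.

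Snx29, a sorting nexin gene, had the most members. It held 35 lost and 22 kept regions over 432565 bp, and H3K27ac regions covered 32.2% and 27.8% of the gene in WT and 6.9% and 9.6% in cKO replicates 1 and 2. Elmo1, whose product works with DOCK proteins to activate RAC in engulfment and migration, had 28 lost and 30 kept regions, with H3K27ac over 34.4% and 24.7% of the gene in WT and 9.5% and 11.6% in cKO. The kept regions of Elmo1 thus outnumbered its members. Dock1, the partner of ELMO1 and an exchange factor for RAC, had 21 lost regions and 1 kept region. H3K27ac covered 7.2% and 5.1% of Dock1 in WT and 0.1% and 0.4% in cKO, and a start site of Dock1 was called in WT replicate 2 only.

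Ralgapa2, a subunit of the complex that inactivates the small GTPases RALA and RALB, held 27 lost and 9 kept regions. A start site of Ralgapa2 was called in cKO replicate 2 only, so here the lost regions lay in a gene without a WT start site call. Pid1, an adaptor that binds lipoprotein receptors, had 22 lost and 16 kept regions. Of the 22 members, 15 were overlapped by H3.3-HA in both libraries, the most among the 12 genes, and H3.3-HA covered 37.2% and 38.6% of the gene. Peak1 held 21 lost and 6 kept regions, 9 of the 21 with H3.3-HA in both libraries. Kif16b, a kinesin that carries early endosomes, held 21 and 7, and Ppp3ca, the catalytic subunit of calcineurin, 21 and 13.

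The last 4 of the 12 were Vps13b, a lipid transfer protein of the Golgi, Cep128, a centriole protein, Mms22l, a factor in the repair of stalled replication forks, and Wdfy3, an adaptor of selective autophagy, with 19, 18, 18 and 18 members. Mms22l was the shortest gene of the 12, at 106500 bp, and its 16.9 members per 100 kb were the highest density. H3K27ac covered 31.0% and 29.9% of Mms22l in WT and 3.5% and 4.6% in cKO. Its H3K36me3 coverage was low in all 4 libraries, at 7.6% and 10.0% in WT and 7.0% and 12.7% in cKO. No member in Mms22l, Ralgapa2 or Vps13b had H3.3-HA in both libraries.

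The 6 densest hosts outside these 12 were Golph3, Gclc, Smarcad1, Smc2, Arl8b and Pik3c2a, with 14.1 to 16.6 members per 100 kb. In Golph3, a Golgi phosphoinositide-binding protein, all 5 WT-shared regions were lost. In Pik3c2a, a class II PI3-kinase, 15 of 16 were lost. Gclc, the catalytic subunit of glutamate-cysteine ligase, lost 6 of 8, Smarcad1, a chromatin remodeller, 11 of 17, Smc2, a condensin subunit, 7 of 10, and Arl8b, a lysosomal small GTPase, 6 of 8.

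**Figure D3:**
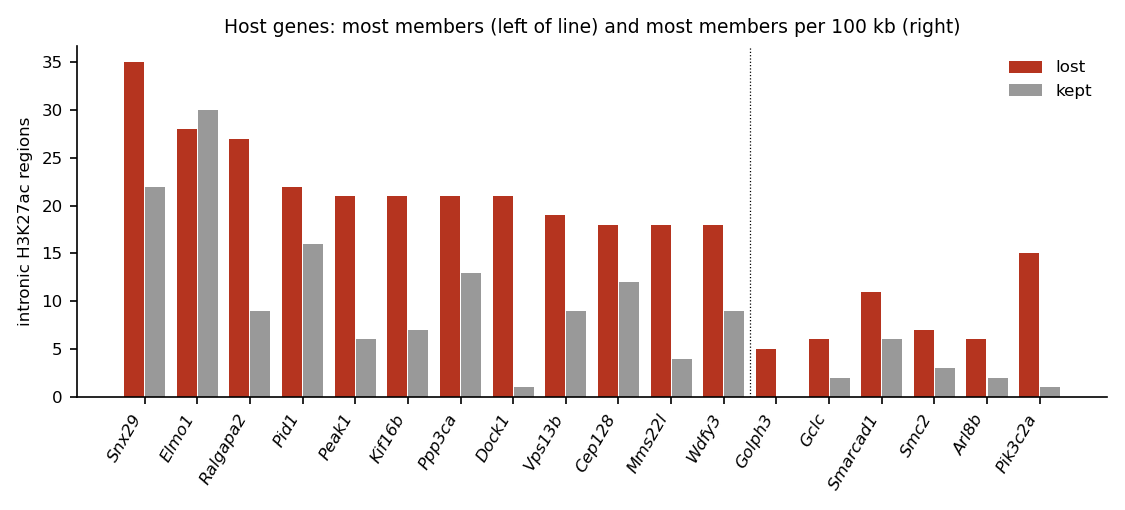
Number of lost and kept intronic H3K27ac regions (bars) in the 12 genes with the most members, left of the dotted line, and the 6 further genes with the most members per 100 kb. Lost regions outnumber kept ones in every gene shown except Elmo1, with 28 lost and 30 kept.

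Members were often grouped. Another member lay within 10 kb of 47.6% of members, and the median gap to the nearest one was 11.1 kb. The denser kept regions had another kept region within 10 kb in 59.8% and gained regions another gained one in 12.1%. When members no more than 10 kb apart were joined, 586 chains held 3 or more members and 2160 members (23.2%) together. The longest chain had 18 members over 92.6 kb and took in all members of Mms22l, with 3 kept regions inside. Ralgapa2 and Herc3 held chains of 10, Pik3c2a and Snx29 of 9. In Igf1, which encodes the growth factor IGF-1 and was named after its values were seen, a chain of 8 members over 31.0 kb had no kept region inside. Setd2, which encodes the main enzyme for trimethylation of H3K36, held a chain of 7 over 33.9 kb, also with none.

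Along a gene, the next WT-shared intronic region beside a member was lost in 50.7% of cases, and the one beside a kept region in 37.2%. For gaps up to 5 kb these shares were 48.5% and 33.2%, and for gaps over 20 kb 54.9% and 47.7%. Members also lay near kept regions, with a median of 7.71 kb to the nearest kept region and 39.1% within 5 kb. By chromosome the lost share of WT-shared intronic regions ran from 33.7% on chromosome 11 to 43.3% on chromosome 1.

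**Figure D4:**
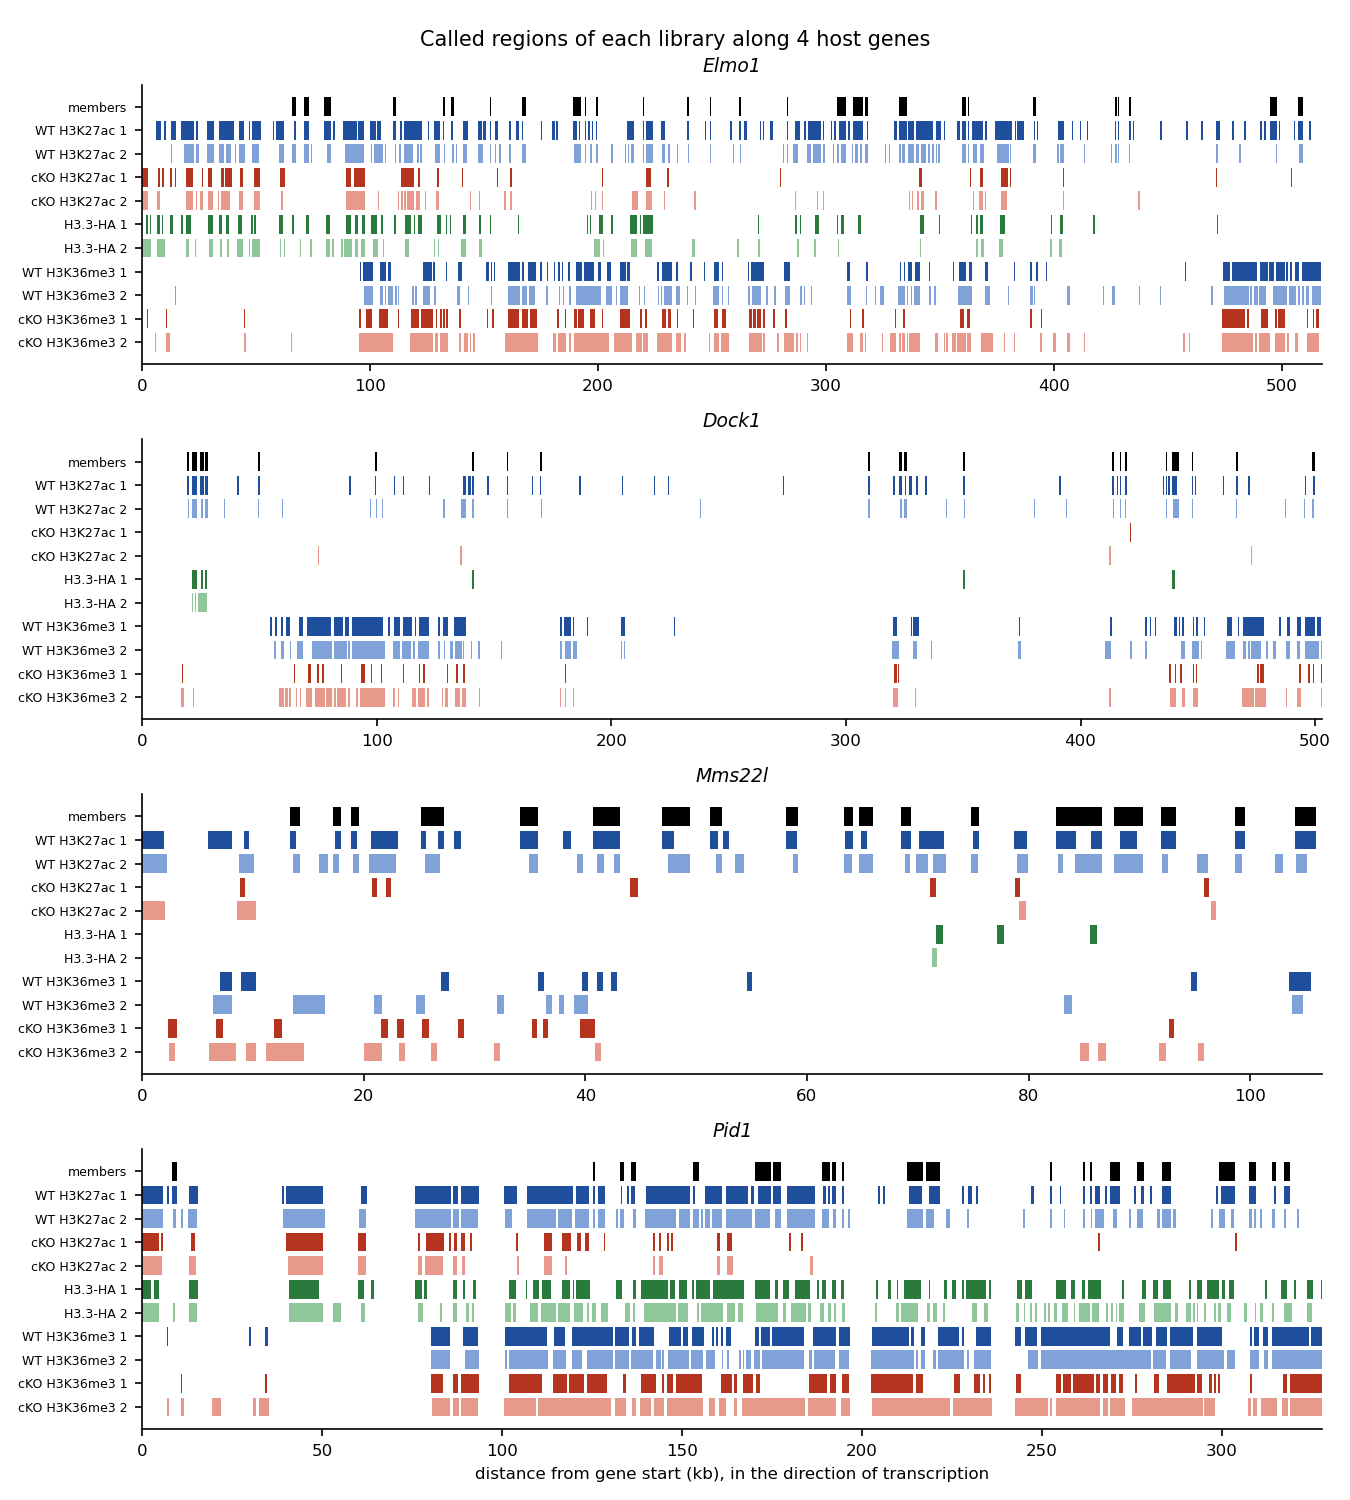
Called regions of each library along Elmo1, Dock1, Mms22l and Pid1, drawn to scale against the distance from the gene start (kb) in the direction of transcription, with the members in black on top. Members of Pid1 lie 125.5 kb or more from the gene start except 1 at 9.1 kb, and the 2 cKO H3K27ac rows of Dock1 hold few calls against many in the WT rows.

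Gene lists are read here as the share of WT-shared intronic regions that were lost, beside 40.2% over all single-host regions. Among surface receptors 57 of 139 were lost (41.0%), led by Nrp1 with 10 and Nrp2 with 9, both neuropilins. For lipid and sterol genes the count was 34 of 83 (41.0%), led by the cholesterol transporter Abcg1 and by Acaca, acetyl-CoA carboxylase, with 3 each, and for chromatin regulators 75 of 188 (39.9%), led by the deacetylase Hdac9 with 14 and Setd2 with 8. These 3 lists lay within 1 percentage point of all genes.

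Other lists stood lower. Lineage transcription factors lost 63 of 209 regions (30.1%), with Mef2a at 16 lost and 8 kept and Foxp1 at 9 and 10, while Runx1 had 4 lost and 18 kept and Mef2c 1 and 16, both named after their values were seen. Kinase and PI3K signalling genes lost 89 of 274 (32.5%), led by Peak1 and Prkcb, protein kinase C beta. Integrin and adhesion genes lost 26 of 79 (32.9%), with Itga4 and Itgav at 7 and 4. Replication and mitosis genes lost 16 of 52 (30.8%), with Cenpf and Pola1 at 3 each, and lysosome genes 21 of 77 (27.3%), with the proton pump subunits Atp6v1h and Atp6v0a1 at 5 and 4.

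The interferon-stimulated genes had the lowest share, 4 of 47 (8.5%), in 4 of 30 genes. The 4 genes, Sp100, Ddx60, Znfx1 and Parp9, had 1 member each, and the naming of Znfx1 and Parp9 followed from their values. Over the same 30 genes 9 regions were gained, beside 1070 gained and 22660 WT-shared regions over all 6478 genes. Of the 30 genes, 93.3% and 90.0% had a start site call in WT replicates 1 and 2, and all 30 had one in both cKO libraries. These genes were short, with a median of 20.7 kb against 41.7 kb over all genes with a WT-shared region (the part of gene length in this was not tested). Of genes that the study called higher in cKO BMDMs on day 7 by RNA-seq, in libraries outside this series (341 of 356 symbols matched), 137 of 377 regions were lost (36.3%) and 67 were gained. Of genes called lower (228 of 248 symbols matched), 223 of 482 were lost (46.3%) and 9 were gained. The first list was led by Syne1 and Herc3 and the second by Man1a and Tbc1d22a.

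Lpin1, a phosphatidate phosphatase and transcriptional coregulator in lipid metabolism, held 2 members and 1 kept region. One member, 2089 bp wide, lay in intron 1 at 21.8 kb from the gene start and the other, 1277 bp wide, in intron 6 at 41.7 kb. A start site of Lpin1 was called in both WT and in neither cKO library. H3K36me3 covered 55.5% and 55.1% of Lpin1 in WT replicates 1 and 2 and 2.0% and 13.2% in cKO replicates 1 and 2, so that both cKO values lay below both WT values.

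Of the 453 genes with 5 or more members, 73.1% and 71.7% had an H3K27ac call at a start site in WT replicates 1 and 2 and 75.3% and 84.5% in cKO replicates 1 and 2. Over all 6478 genes with a WT-shared region the shares were 58.1%, 57.2%, 65.0% and 75.98%, also higher in both cKO libraries. In the 96 genes with 10 or more members they were 79.2% and 83.3% in WT and 71.9% and 88.5% in cKO, which overlapped. Over the gene bodies of the same 453 genes H3K27ac regions covered a mean of 23.2% and 19.2% in WT and 6.9% and 8.5% in cKO, which in part restates how the genes were picked.

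H3.3-HA, which the rule did not use, was called at 35.8% of members in replicate 1 and 29.5% in replicate 2, and at 22.1% in both (2061 members, Wilson 95% interval 21.3% to 23.0%, for counting error only). The same shares were 65.6%, 62.8% and 53.9% for kept regions and 29.6%, 31.7% and 19.5% for gained regions, so members stood below kept regions in both libraries. Over all 61432 intronic regions they were 30.01%, 27.9% and 20.7%, and members lay slightly above these. Width moved with this. Among regions of 501 to 750 bp, H3.3-HA in both libraries was found at 11.7% of members and 16.5% of kept regions, at 1001 to 1500 bp at 22.8% and 26.4%, and at 3001 to 5000 bp at 58.5% and 66.6%. Within each of the 7 width classes the members stood below the kept regions in this share, and the gap was smaller than over all widths. Above 5 kb, 73.7% of 38 members and 89.2% of kept regions had H3.3-HA in both libraries. The H3.3-HA cells were not cKO cells, so these values give where tagged H3.3 lay in cells with intact genes.

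H3K36me3 was called at 55.3% and 56.7% of members in WT replicates 1 and 2 and at 37.7% and 53.3% in cKO replicates 1 and 2. Both cKO values lay below both WT values, and the mean was 56.0% ± 0.964 over WT libraries and 45.5% ± 11.04 in cKO libraries (SD, n = 2 each). The cKO mean minus the WT mean was -10.5 percentage points (two-sided exact permutation p = 0.333, the smallest that 2 against 2 libraries allow). Without cKO replicate 1, the library with few tags in regions, the difference was -2.72 points. Over all 61432 intronic regions the values were 52.2% and 53.8% in WT and 35.96% and 51.7% in cKO, a difference of -9.15 points with the same order of libraries, so the difference at members was close to that of intronic regions in general. At kept regions the values were 50.04% and 52.4% in WT and 41.8% and 54.9% in cKO, which overlapped. H3K36me3 was called in both WT and neither cKO library at 430 members, 4.61% of them, against 4.44% of all intronic regions, and in both cKO but neither WT library at 96 members, or 1.03% against 1.14%. The share of members was close to that background in both directions.

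Around the midpoint, H3K36me3 of WT replicate 1 was called at 44.5% of member midpoints and at 44.1% and 43.9% of positions 5 kb to either side. At kept regions the same library had 26.9% at the midpoint and 37.2% and 37.5% at 5 kb. Between these points the average over members had a shallow dip, from 46.9% at -2100 bp to 44.5% at the midpoint and 46.6% at 2500 bp. The dip over kept regions was deeper. No H3K36me3 call in any of the 4 libraries was found at 35.3% of members, 37.3% of kept and 37.4% of all intronic regions. Kept regions lay nearer to gene starts, and the part of position in the depth of the dip was not tested.

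Over the bodies of the 453 genes with 5 or more members, H3K36me3 regions covered a mean of 41.1% and 42.7% in WT and 22.4% and 40.0% in cKO. The difference was -10.7 percentage points (two-sided exact permutation p = 0.333, n = 2 each), and -1.90 without cKO replicate 1. It was -5.17 points in genes with no member, -9.99 with 2 to 4 and -9.83 with 10 or more. Over all 6478 genes with a WT-shared region the means were 41.31% and 42.95% in WT and 26.20% and 43.02% in cKO. In 251 of the 453 genes (55.4%) coverage was lower in both cKO than in both WT libraries, against 38.4% of the 11156 protein-coding genes with an H3K36me3 region. With cKO replicate 2 alone set against both WT libraries the shares were 55.4% and 38.6%. In genes with a WT-shared region but no member the share was 28.8%, in genes with 1 member 37.96% and in genes with 2 to 4 members 45.6%. The share thus rose up to the class of 5 or more members, and it was 54.2% in the 96 genes with 10 or more. These classes also differed in gene length.

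**Figure D5:**
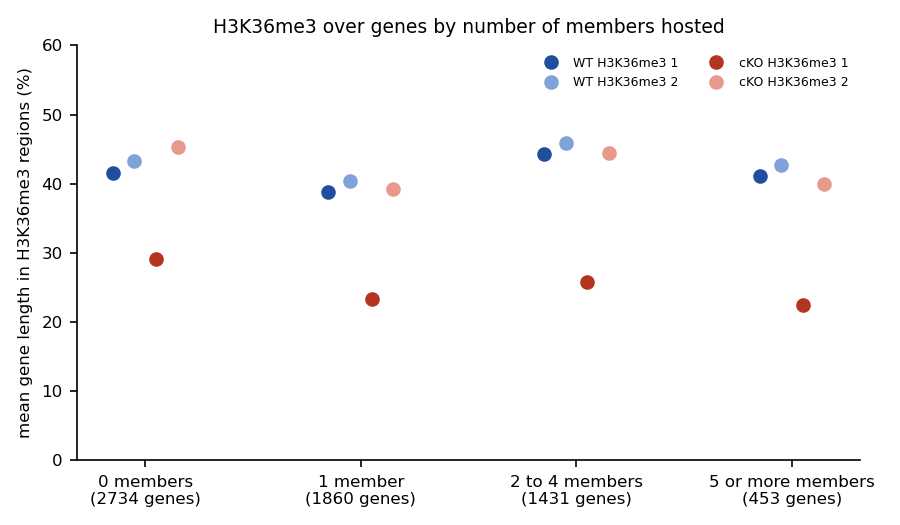
Mean share of gene length in H3K36me3 regions (%) in each of the 4 libraries (points), for genes grouped by the number of members they host. In genes with 5 or more members both cKO points lie below both WT points, and in genes with no member cKO replicate 2 lies above both.

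In the 300 bp around the midpoint, members had a median GC content of 42.0%, kept regions 44.0% and gained regions 45.0%. At least 5 CpG were found in 12.1% of members, 25.3% of kept and 26.5% of gained regions. Repeats made up a mean of 20.9% of the member windows and 20.8% of the kept windows. The 9 motifs were searched on both strands by exact letters, where N is any base: PU.1 as GAGGAAGT, AP-1 as TGANTCA, C/EBP as TTGCNNAA, a MAF site as TGCTGA, RUNX as TGTGGTT, an E-box as TCACGTG, an interferon response element as TTTCNNTTT, KLF/SP as GGGCGGG and a CTCF core as AGGGGGC. KLF/SP was found in 1.09% of members, 3.38% of kept and 4.57% of gained windows, and the CTCF core in 1.89%, 3.43% and 3.88%. At widths over 750 and up to 1500 bp these shares were 1.05%, 2.21% and 4.95%, and 1.82%, 2.84% and 3.78%. At least 5 CpG were found there in 11.9%, 18.9% and 27.4%. The gap between members and kept regions was smaller at these widths in all of these shares. Of all widths, 1.996% of members, 25.01% of kept and 12.05% of gained regions reached into a start site window. The part of this in the contrasts was not tested. PU.1, the lineage factor of macrophages, matched in 3.23% of members and 3.6% of kept regions, and at widths over 750 and up to 1500 bp in 3.44% and 5.19%. AP-1 matched in 12.6% and 12.1%, C/EBP in 13.0% and 12.7%, the MAF site in 22.9% and 21.8%, RUNX in 8.28% and 7.81%, the E-box in 1.24% and 1.35% and the interferon response element in 18.1% and 18.2%. Among members, PU.1 matched in 4.80% of those with H3.3-HA in both libraries and in 2.78% of the rest, and RUNX in 10.3% and 7.70%. The MAF site, E-box, KLF/SP and CTCF core were also more frequent in members with H3.3-HA in both libraries. AP-1 (11.9% and 12.8%), C/EBP (12.3% and 13.1%) and the interferon response element (17.1% and 18.4%) were less frequent in them. A match is a description of letters and not of binding.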

How the data were processed

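The deposited lists hold the coordinates of called regions, with a score column that the authors' caller left at the same value in every row, so no signal strength was available. Per the labels, reads were trimmed with cutadapt, aligned to mm10 with Bowtie and called with HOMER. Per the file headers, regions were called per library in histone style against IgG. The headers also gave total tags and tags in regions.

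Starts were shifted to count from 1, lists were merged where they shared 1 bp or more, and midpoints were placed with the GENCODE M21 basic annotation using Python 3.11.15, numpy 2.4.6 and pandas 2.3.3. All region ends lay inside the chromosome lengths of the reference. Libraries were compared by a two-sided exact permutation test over 2 WT and 2 cKO libraries, which cannot reach p < 0.05. The placement was checked on simulated lists.

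The members and gene lists were chosen with earlier results of these data known. Named genes were the 12 hosts with the most members, the 6 densest other hosts with 5 or more, the 2 leading genes of each list, the 4 widest members, Lpin1 and the targeted genes. The labels give same-numbered libraries a shared number and do not say whether they were prepared together. The 5 IgG samples were not analysed here. 1 sequence stretch, 1 marker and 1 gene list are not reported here.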

Additional observations from a re-analysis of the deposited data

How the results depend on the processing

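The direction of both H3K36me3 differences was the same under all alternatives run, with no reversal, and their exact permutation p was 0.333 wherever all 4 H3K36me3 libraries were compared with no replicate block, except with calls of 1 kb or more, where both were 0.667. Requiring calls of 1 kb or more gave 4364 members, 40.7% of WT-shared regions lost, 34.8% of members within 10 kb of another, a median of 36.8 kb to the host gene start and 51.3% with H3.3-HA in both libraries. Lists of equal length (the 35018 widest regions of each) gave 4498, 29.1%, 30.4%, 38.8 kb and 34.7%. A rule of at least 50% of the merged region covered gave 62.4%, 54.7%, 38.2 kb and 34.2% for the last 4 quantities. With no cKO region within 1 kb, 33.0% were lost, 43.1% lay within 10 kb of another and the median distance was 43.5 kb. Introns of all annotated genes gave 38.6 kb, and a promoter window of 2 kb each side 44.6% lost and 42.6 kb. Neighbour distances of 5 and 20 kb gave 32.9% and 63.8%. With at least 50% of the member covered, 10.8% had H3.3-HA in both libraries. Causes of these shifts were not tested.

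Leaving out 1 library at a time gave 11118 to 24143 members, 47.8% to 58.8% lost, 53.3% to 72.8% within 10 kb, 37.6 to 41.6 kb and 12.2% to 35.8% with H3.3-HA. Without an H3K27ac library the rule sets 1 condition fewer, which by itself lets in more regions. The share of 35.8% was that of H3.3-HA replicate 1 alone. Without WT H3K27ac replicate 1 there were 19689 members, 14.2% of them with H3.3-HA, and without WT replicate 2 there were 24143 and 12.2%. The H3K36me3 differences ran from -18.3 to -2.72 points at members and from -19.5 to -1.90 points over genes with 5 or more members, the smallest without cKO H3K36me3 replicate 1 and the largest without cKO replicate 2. With the replicate block the differences were -10.5 and -10.7 points (exact sign flips, p = 0.5, the smallest that 2 pairs allow). Deviations of same-numbered H3K36me3 libraries correlated at 0.0691 across genes, and the numbers were not taken as pairs. With 2 libraries per group this correlation cannot exclude pairing. The lists hold no read counts per region, and a region absent from a list may still carry signal below the calling threshold.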
